A study of Mus musculus with 15 samples.

Results

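PU.1 binding in mouse eosinophils was compared with PU.1 binding in mouse macrophages, peak by peak. The eosinophil side is 1 list of 62236 PU.1 peaks, out of 365607 peaks in all peak lists of the series' own samples. The macrophage side is an outside list of 135034 PU.1 peaks that the authors re-analysed and deposited under the name mBMDM, the usual abbreviation for mouse bone marrow-derived macrophages. An eosinophil peak was called shared where it overlapped a macrophage peak by at least 1 bp and eosinophil-private where it did not, and macrophage-private peaks were defined the same way. Each side is 1 library, so no test between the cell types was possible, and peaks of a list are not replicates of a condition.

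The eosinophils came from unselected bone marrow cells of BALB/c mice cultured for 14 days, with stem cell factor and FLT3 ligand at 100 ng/mL each on the first days and then interleukin 5 at 10 ng/mL. Of the 15 samples, those used here are the BALB/c PU.1 library and 2 BALB/c libraries each for open chromatin (ATAC-seq), for the histone marks H3K27ac, H3K4me3 and H3K4me1, and for messenger RNA. A further 2 ATAC and 2 H3K27ac libraries came from eosinophils grown the same way from mice titled C57, with the strain label BL6/57. Strain, treatment and age of the mice behind the macrophage list, and the age of the eosinophil donors, are not stated in the labels or headers used here. Strain, laboratory and cell type therefore cannot be told apart in the comparison. No label ties the libraries of a group to separate animals or cultures, so the spread between them may be technical.

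PU.1, encoded by Spi1, belongs to the ETS transcription factors, binds purine-rich DNA around a GGAA core, and is required for myeloid development. It works with partner factors that differ between lineages, such as C/EBP and IRF factors in macrophages and granulocytes, and it can hold regulatory DNA accessible to them. H3K4me3 lies mostly at promoters, H3K4me1 at enhancers, and H3K27ac at promoters and enhancers that are active. Eosinophils are granulocytes, whereas macrophages are phagocytes that derive from monocytes or embryonic precursors.

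Most eosinophil PU.1 peaks had a macrophage counterpart, and most macrophage peaks had no eosinophil counterpart. Of the 62236 eosinophil peaks 51842 were shared, which is 83.3% (95% Wilson interval 83.0 to 83.6%, counting error only), and 10394 (16.7%) were eosinophil-private. Of the 135034 macrophage peaks 52427 were shared, 38.8% (38.6 to 39.1%), and 82607 (61.2%) were macrophage-private. The macrophage list covered 45.1 Mb and the eosinophil list 31.9 Mb, with 18.7 Mb in both, which is 58.5% of the eosinophil and 41.4% of the macrophage base pairs. Nearly all contacts were between single peaks: 50169 shared eosinophil peaks met 1 macrophage peak and 1673 (3.23%) met more than 1.

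The shared fraction followed the strength of the peak. The −log10 q value in column 9 of each list, the peak caller's own measure deposited by the authors, was used to order peaks within a list. In the lowest decile of the eosinophil list, with a median −log10 q of 3.37, 67.7% of peaks were shared, and this share was higher in each following decile, to 97.5% in the highest, with a median of 37.8. For macrophage peaks the share was 14.9% in the lowest decile and 14.8% in the next, and it was then higher with each decile, to 88.5% in the highest. The private peaks were accordingly the weaker ones in each list. Eosinophil-private peaks had a median −log10 q of 5.92 (quartiles 4.31 and 8.83) against 10.2 (5.98 and 19.1) for shared eosinophil peaks, and macrophage-private peaks 5.34 (3.55 and 10.0) against 18.9 (7.86 and 42.5) for shared macrophage peaks. The fold enrichment, also the authors' value, had medians of 4.55 at eosinophil-private and 5.59 at shared eosinophil peaks, and of 4.98 at macrophage-private and 8.29 at shared macrophage peaks.

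**Figure D1:**
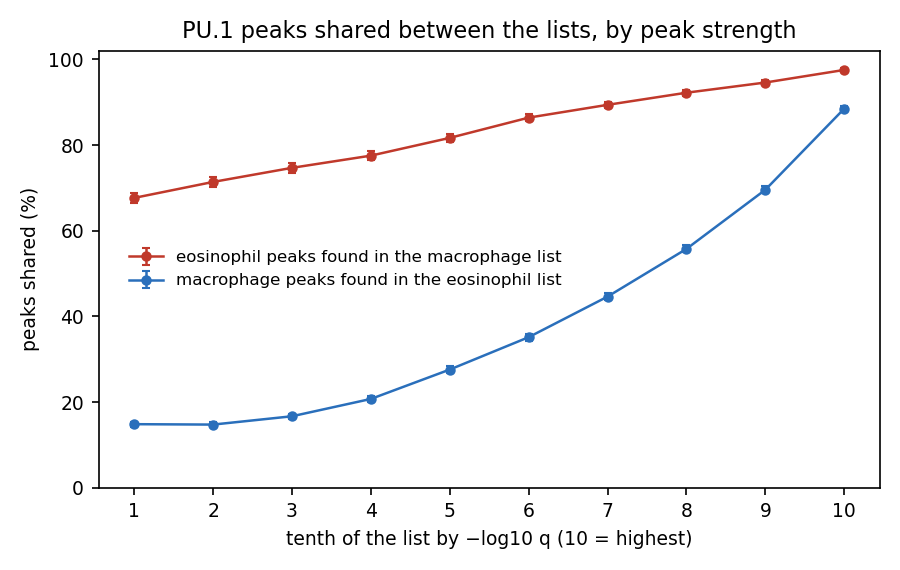
Share of PU.1 peaks found in the other list (y axis, percent, bars are 95% Wilson intervals) by decile of −log10 q within each list (x axis, 10 is the highest). The eosinophil line runs from 67.7% to 97.5%, and the macrophage line from 14.9% to 88.5%.

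Strong private peaks were few on both sides. Among the 1000 highest eosinophil peaks 16 were absent from the full macrophage list, among the 5000 highest 117, and among the 10000 highest 342. Among the 1000 highest macrophage peaks 22 were absent from the full eosinophil list, among the 5000 highest 256, and among the 10000 highest 868.

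The lists differ in length and in how peaks were called. The eosinophil peaks are in the narrow-peak format with a lowest −log10 q of 2.00, while the macrophage peaks are in the broad-peak format with a lowest value of 1.01. Despite that, eosinophil peaks were the wider ones, with a median of 457 bp against 282 bp. When the macrophage list was limited to its 62236 highest peaks, so that both lists had equal length, 37821 eosinophil peaks (60.8%) and 37942 macrophage peaks (61.0%) were shared. The asymmetry between the shares thus vanished by construction, and 24415 eosinophil peaks had no partner in place of 10394. With the 10000 highest peaks of each list 44.2% of the eosinophil peaks were shared, and with the 1000 highest 23.1%, although only 16 of those 1000 lacked a partner in the full macrophage list. The median width was 938 bp for the 1000 highest eosinophil peaks and 389 bp for the 1000 highest macrophage peaks.

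At equal lengths the macrophage overlap was not the largest among the myeloid PU.1 lists of the series until the lists became long. With 10000 peaks each, 52.8% of the eosinophil peaks were found in the neutrophil list and 52.7% in the immature granulocyte list, against 44.2% in the macrophage list. With 35266 peaks each the values were 56.6%, 57.7% and 56.7%, and with 62236 peaks each 55.3% for neutrophils and 60.8% for macrophages. The neutrophil and immature granulocyte lists have the narrow layout of the eosinophil list, so call mode and cell type cannot be told apart here.

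**Figure D2:**
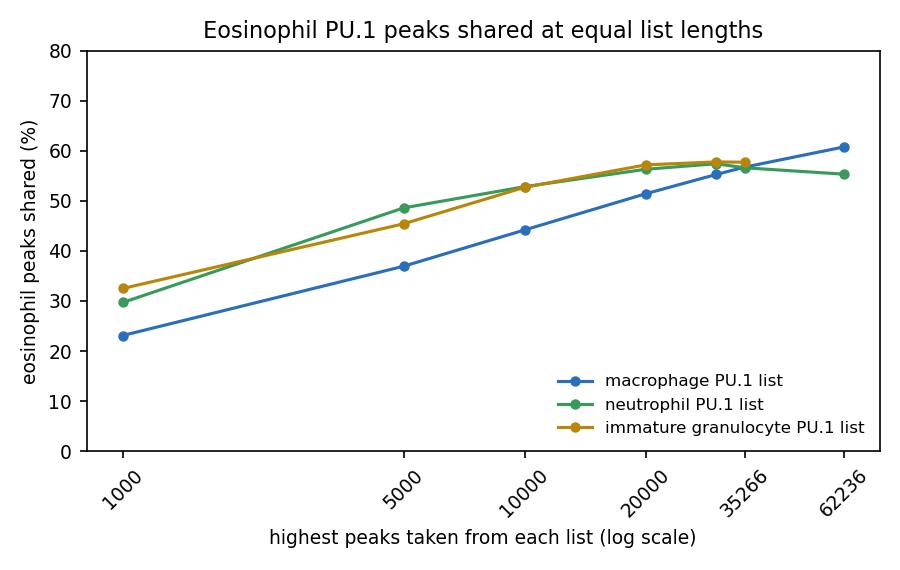
Share of eosinophil PU.1 peaks found in another PU.1 list (y axis, percent) when the same number of highest peaks by −log10 q is taken from each list (x axis, log scale). The macrophage line rises from 23.1% at 1000 peaks to 60.8% at 62236, below the granulocyte lines up to 30000 peaks.

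The distance from private peaks to the nearest peak of the other cell type was measured in both lists. The gap from an eosinophil-private peak to the nearest macrophage peak had a median of 3.52 kb (quartiles 0.992 and 9.38 kb), and 2614 (25.1%) lay within 1 kb. The gap from a macrophage-private peak to the nearest eosinophil peak had a median of 9.50 kb (2.99 and 31.5 kb), and 8916 (10.8%) lay within 1 kb. The part of list length in these distances was not tested.

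Open chromatin of BALB/c eosinophils lay at many eosinophil-private PU.1 peaks and at few macrophage-private ones. Among shared peaks 42.5% and 42.7% overlapped an ATAC peak of replicates 1 and 2, with a mean of 42.6 ± 0.140% (SD, n = 2 libraries). Among eosinophil-private peaks the shares were 34.6% and 36.4% (35.5 ± 1.25%), and among macrophage-private peaks 4.17% and 4.22% (4.20 ± 0.0325%). The sets did not overlap in these libraries. The same mean was 41.4% over all eosinophil PU.1 peaks and 19.1% over all macrophage PU.1 peaks. Counting only peaks that overlapped ATAC in both libraries, the shares were 38.0% of shared and 29.3% of eosinophil-private peaks, against 36.5% of all eosinophil peaks. Macrophage-private peaks thus lay 31.3 ± 1.22 percentage points below eosinophil-private peaks, and eosinophil-private peaks 7.11 ± 1.11 points below shared ones. The sets also differed in width, with medians of 498 bp for shared, 298 bp for eosinophil-private and 254 bp for macrophage-private peaks. Wider peaks can meet the 1 bp overlap more readily, and these shares are not adjusted for width.

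Histone marks of the eosinophils gave a similar order between the cell types. H3K27ac lay at 32.6 ± 2.77% of shared, 28.4 ± 3.78% of eosinophil-private and 2.48 ± 0.392% of macrophage-private peaks. Its mean was 31.9% over all eosinophil and 13.9% over all macrophage PU.1 peaks. Marked in both libraries were 29.0% of shared and 23.3% of eosinophil-private peaks, against 28.1% of all eosinophil peaks. Shared peaks had shares of 30.6% and 34.5% in replicates 1 and 2 and eosinophil-private peaks 25.7% and 31.0%, so the libraries of these sets overlapped, although within each library shared peaks were higher, by 4.93 and 3.50 points. H3K4me3 lay at 28.4 ± 0.997%, 20.2 ± 1.04% and 4.07 ± 0.193% of the sets. Its mean was 27.05% over all eosinophil and 13.6% over all macrophage peaks. The share at eosinophil-private peaks was 8.20 ± 0.0438 points below that at shared peaks. In both libraries it lay at 27.03% of shared and 18.6% of eosinophil-private peaks, against 25.6% of all eosinophil peaks. H3K4me1 was the exception, with 17.7 ± 0.777% of shared, 19.7 ± 1.69% of eosinophil-private and 2.56 ± 0.204% of macrophage-private peaks. Its mean was 18.04% over all eosinophil and 7.74% over all macrophage peaks. In both libraries it lay at 11.3% of shared and 12.6% of eosinophil-private peaks, against 11.6% of all eosinophil peaks. It lay more often at eosinophil-private than at shared peaks in both libraries, with differences of -2.68 and -1.38 points for shared minus private.

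The distance of macrophage-private peaks from the other sets held in every alternative tried, where their ATAC share was between 3.09 and 6.85%. The order of shared and eosinophil-private peaks did not hold. With lists of equal length the differences for shared minus private were 2.37 points for ATAC, 0.621 for H3K27ac, -0.998 for H3K4me3 and 2.45 for H3K4me1. With both lists reduced to 200 bp windows around the peak midpoints all 4 were negative, at -2.11, -7.39, -4.60 and -3.36 points in the same order.

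**Figure D3:**
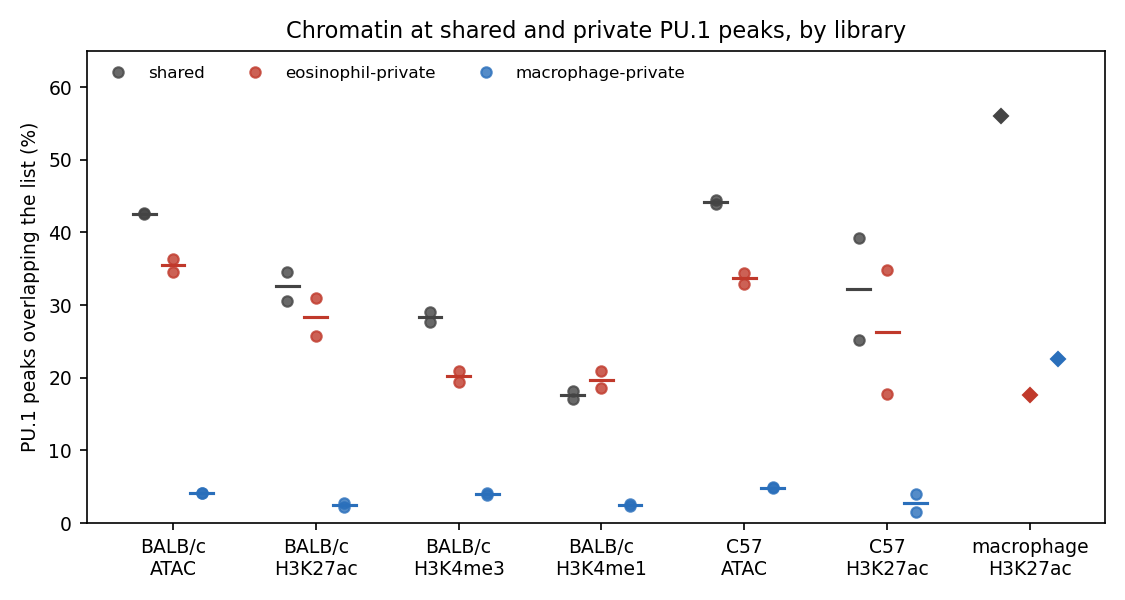
Share of PU.1 peaks that overlap a peak of each chromatin list (y axis, percent). Circles are single libraries, horizontal lines their means, and diamonds the single macrophage H3K27ac list. Macrophage-private peaks lie at 4.20 ± 0.0325% in BALB/c ATAC and at 22.6% in the macrophage H3K27ac list.

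Peaks compared within classes of strength showed a different picture from the pooled sets. Eosinophil peaks were divided into quintiles by −log10 q, and shared and private peaks were compared inside each. In the lowest quintile, ATAC lay at 19.9 ± 0.490% of shared and 30.1 ± 0.932% of eosinophil-private peaks, and H3K27ac at 13.7 ± 1.72% and 24.5 ± 3.45%. The weakest private peaks were thus open and acetylated more often than equally weak shared peaks, in both libraries of each assay. In the middle quintile the ATAC shares were 35.2 ± 0.325% and 35.7 ± 1.24%, a difference within the spread of the libraries. In the highest quintile ATAC lay at 70.8 ± 0.219% of shared and 66.0 ± 1.44% of the 491 eosinophil-private peaks. Shared peaks of that quintile were still stronger and wider, with a median −log10 q of 29.7 against 25.5 and a median width of 807 against 672 bp. Averaged over the quintiles, the difference for shared minus private was -1.84 ± 1.30 points for ATAC and -2.16 ± 1.62 points for H3K27ac, the reverse of the pooled difference.

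H3K4me1 and H3K4me3 separated the strong peaks. In the highest quintile H3K4me1 lay at 43.8% and 39.5% of eosinophil-private peaks in replicates 1 and 2, against 33.6% and 32.0% of shared peaks. H3K4me3 lay at 18.1% and 22.0% of these private peaks, against 37.7% and 40.2% of the shared ones. Strong private peaks therefore carried the enhancer mark more often and the promoter mark less often than strong shared peaks, with no overlap between the libraries of the sets. H3K4me1 was higher at private peaks in all 5 quintiles, with differences of -6.15 to -10.7 points for shared minus private. For H3K4me3 this difference was -6.03 points in the lowest quintile and 18.9 points in the highest. The H3K4me1 difference in the highest quintile kept its direction in all 7 alternatives, between -2.25 and -10.9 points for shared minus private. The H3K4me3 difference turned to -4.27 points when the midpoint had to lie in a macrophage peak and to -11.1 points with 200 bp windows, and was between 12.4 and 18.7 points in the other 5.

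**Figure D4:**
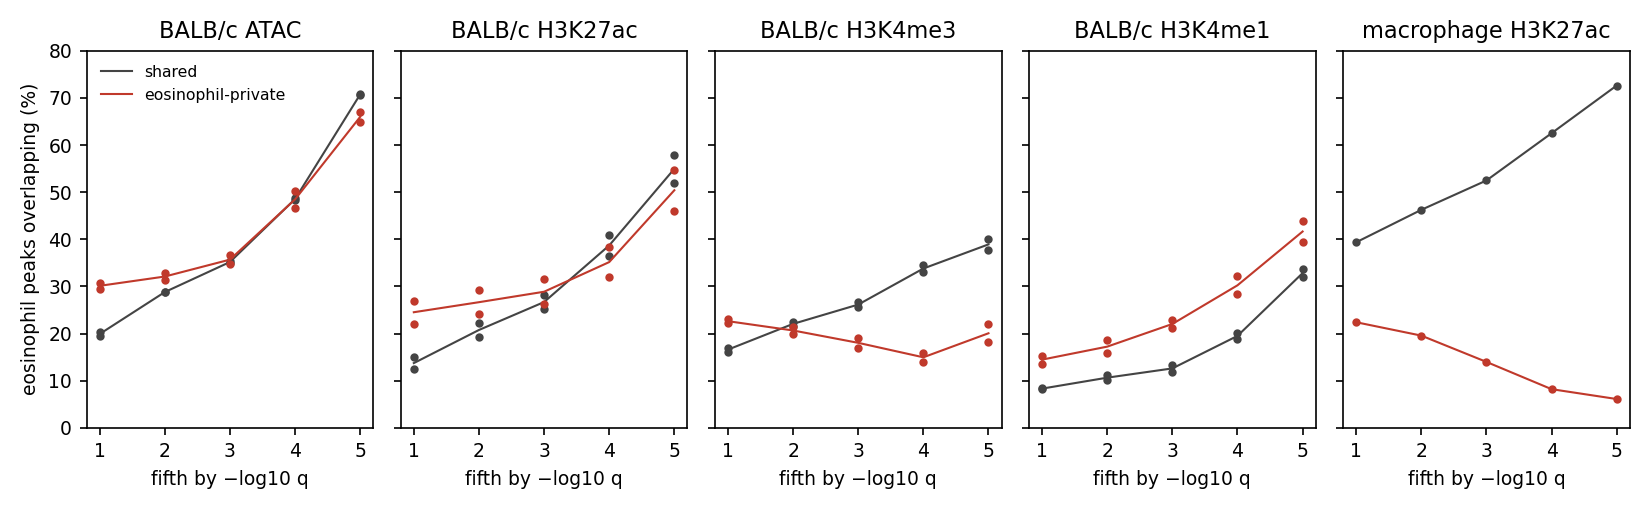
Share of eosinophil PU.1 peaks overlapping each chromatin list (y axis, percent) by quintile of −log10 q (x axis, 5 is the highest), for shared (grey) and eosinophil-private (red) peaks. Points are libraries and lines their means. ATAC and H3K27ac lines cross, H3K4me1 is higher at private peaks throughout, and macrophage H3K27ac falls to 6.11% at strong private peaks.

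Acetylation in macrophages was far less frequent at eosinophil-private than at shared peaks. The macrophage H3K27ac list, like the macrophage PU.1 list a single outside library, overlapped 49.6% of all eosinophil PU.1 peaks. It lay at 29024 shared peaks (56.0%, 55.6 to 56.4%) and at 1834 eosinophil-private peaks (17.6%, 16.9 to 18.4%), a difference of 38.3 points (37.5 to 39.2, from the Wilson limits). The gap widened with strength. In the lowest quintile 39.4% of shared and 22.4% of private peaks were acetylated in macrophages, and in the highest 72.6% (71.8 to 73.4%) and 6.11% (30 of 491, 4.31 to 8.59%). The pooled difference kept its direction in each alternative, from 16.9 points with 200 bp windows to 40.6 points as the mean over quintiles. In the highest quintile it was 66.5 points, and it shrank to 30.4 points when most of the peak had to be covered by the other list, to 28.4 points by midpoints and to 10.2 points with 200 bp windows. At macrophage-private peaks the macrophage mark lay at 18693 (22.6%), against 35.7% of all macrophage PU.1 peaks.

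Eosinophil peaks acetylated in eosinophils alone were private more often than peaks acetylated in macrophages. Of the 15053 shared peaks with H3K27ac in both eosinophil libraries, 92.0% (91.5 to 92.4%) also had it in macrophages, compared with 49.6% (47.6 to 51.6%) of the 2421 acetylated eosinophil-private peaks. Seen from the other side, 2429 eosinophil PU.1 peaks were acetylated in both eosinophil libraries and not in the macrophage list. Of them 1220 (50.2%, 48.2 to 52.2%) were eosinophil-private. Of the 15045 peaks acetylated in both cell types, 1201 (7.98%, 7.56 to 8.43%) were eosinophil-private. Of the 15813 acetylated in macrophages but not in both eosinophil libraries, 633 (4.00%) were. Over all eosinophil peaks 16.7% were private. Acetylation in macrophages but not in both eosinophil libraries was found at 29.3% of shared, 6.09% of eosinophil-private and 20.9% of macrophage-private peaks. It was found at 25.4% of all eosinophil and 24.5% of all macrophage peaks. The macrophage H3K27ac list is longer than the eosinophil lists, with 59401 peaks over 53.5 Mb. Limited to its 20467 highest peaks, the number in the shorter eosinophil list, it overlapped 32.8% of shared, 9.61% of eosinophil-private and 7.82% of macrophage-private peaks. For the limited list the share over all eosinophil or all macrophage peaks was not computed.

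**Figure D5:**
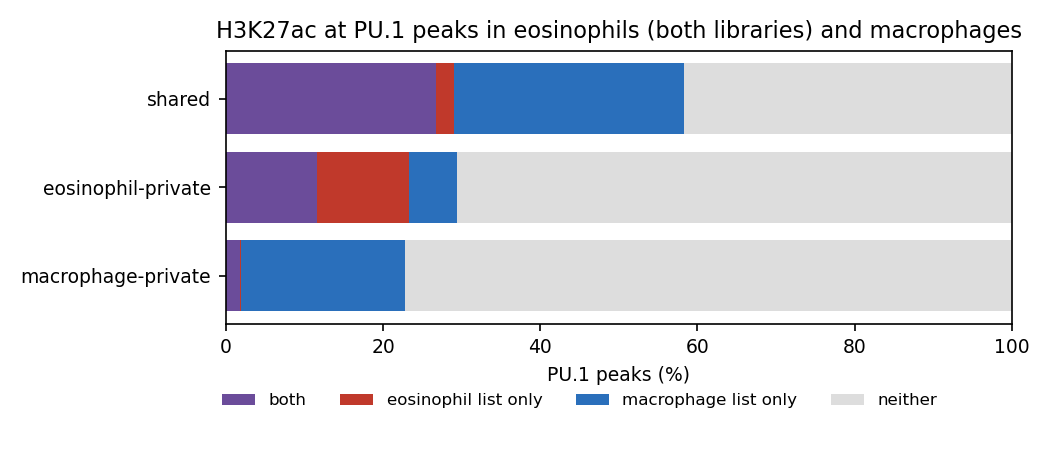
PU.1 peaks of each set (rows) by H3K27ac in eosinophils, called in both BALB/c libraries, and in the macrophage list (x axis, percent of the set). Eosinophil-only acetylation makes up 11.7% of eosinophil-private, 2.33% of shared and 0.137% of macrophage-private peaks.

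The combined chromatin state of the peaks was taken from regions called in both BALB/c libraries of an assay. A peak with ATAC or a mark in a single library was counted as without it. Open sites with H3K4me3, a promoter-like state, held 11991 shared peaks (23.1%) and 1450 eosinophil-private peaks (14.0%). Open sites with H3K27ac and no H3K4me3, an enhancer-like state, held 2806 shared (5.41%) and 594 private peaks (5.71%). H3K4me1 alone at open sites was found at 2.54% and 2.41%, and open sites with none of the marks at 6.88% and 7.23%. Marked sites not called open held 9.26% of shared and 14.2% of private peaks. The largest class in both sets had neither ATAC nor a mark, with 52.8% of shared and 56.5% of private peaks, and it took 93.5% of the macrophage-private peaks. By state, 10.8% (10.3 to 11.3%) of eosinophil PU.1 peaks at promoter-like sites were private, below the 16.7% of all eosinophil peaks, and 23.5% (22.5 to 24.6%) at marked sites not called open, above it. The other states were close to it, with 17.5% (16.2 to 18.8%) at enhancer-like sites, 16.0% at open sites with H3K4me1 alone, 17.4% at open sites with no mark and 17.7% at sites with neither. In the enhancer-like class the private peaks were weaker than the shared ones, with a median −log10 q of 10.2 against 26.0.

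Single regions are given with coordinates of mm9, the build that the submitters' processing notes name. Chromosome 18, mitochondrial and unplaced sequences are left out of them. Of the eosinophil-private peaks the highest lay at chr14:122968127-122968379, with a −log10 q of 81.5 and a fold of 25.8. It had H3K4me1 in both libraries, neither ATAC nor another mark, and no PU.1 peak in the other 3 myeloid lists. The next, chr6:48625807-48626747, had a −log10 q of 63.0 and a fold of 14.0, with ATAC, H3K27ac and H3K4me3 in both libraries. The nearest macrophage peak was 10.1 kb away, and the region was absent from the macrophage H3K27ac list while both granulocyte lists had a PU.1 peak there. At chr15:61067438-61068267 (−log10 q 61.1) ATAC and H3K4me1 were called in 1 library each. At chr8:128302914-128303159 (59.9) ATAC, H3K27ac and H3K4me1 were called in both libraries and H3K4me3 in 1, with a macrophage peak 0.939 kb away.

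Private peaks that were open and acetylated in both libraries were led by the chr6 and chr8 regions above. They were followed by chrX:139011642-139012627 (−log10 q 54.6, fold 11.3, H3K4me1 in 1 library), chr16:34752676-34753537 (54.4, fold 10.9, H3K4me3 in 1 library) and chr4:132817303-132818196 (54.2, fold 10.5, H3K4me3 in both). Their nearest macrophage peaks were 15.4, 13.4 and 10.5 kb away. None of these 5 regions overlapped the macrophage H3K27ac list, and the granulocyte lists both held 4 of them, the chr8 region being found in the immature granulocyte list alone.

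The highest macrophage-private peaks were acetylated in macrophages and mostly unmarked in eosinophils. The leading region, chr15:49940466-49940828, had a −log10 q of 118 and a fold of 25.5 in macrophages, and the nearest eosinophil PU.1 peak was 439.9 kb away. The next were chr9:54811424-54811814 (−log10 q 114), chr11:58772614-58773013 (110.5), chr12:73069584-73069998 (110.0) and chr6:3295915-3296312 (109). All 5 were in the macrophage H3K27ac list and in the immature granulocyte PU.1 list, and 3 were in the neutrophil PU.1 list. In the eosinophil libraries 4 of them had neither ATAC nor a mark, and the chr6 region had H3K27ac and H3K4me3 in 1 library each. At chr11 and chr6 an eosinophil PU.1 peak lay 0.332 and 0.331 kb away.

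The 5 highest shared peaks outside chromosome 18, mitochondrial and unplaced sequences were called in every assay examined. They ranked 1, 2, 5, 6 and 8 in the eosinophil list by −log10 q. These were chr12:3109809-3110177 (210.0), chr6:103598994-103599345 (209.9), chr9:35112747-35113237 (178), chr1:197067543-197068145 (149) and chr19:61275179-61275816 (133). All 5 overlapped ATAC and all 3 marks in both libraries, the macrophage H3K27ac list and all myeloid PU.1 lists. In all, 515 eosinophil peaks (0.827%) lay in every one of the 16 other lists examined, C57 lists included, and these made up 40 of the 100 highest eosinophil peaks. Whether peaks called in every list are PU.1 binding or signal common to all assays was not tested. Without these 515 peaks 83.2% of eosinophil peaks were shared, ATAC was 6.54 points higher at shared than at private peaks, and the macrophage H3K27ac difference was 37.9 points.

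ATAC of eosinophils from the other strain gave the sets in the same order. C57 ATAC lay at 44.2 ± 0.438% of shared, 33.7 ± 1.06% of eosinophil-private and 4.90 ± 0.169% of macrophage-private peaks. Its mean was 42.4% over all eosinophil and 20.1% over all macrophage peaks. Of the 3047 eosinophil-private peaks open in both BALB/c libraries, 2423 (79.5%, 78.1 to 80.9%) were open in both C57 libraries and 303 (9.94%) in neither. For the 19678 open shared peaks these shares were 89.8% (89.4 to 90.3%) and 3.50%. They were not computed over all open eosinophil peaks. Shared peaks were also stronger than private ones, and the part of peak strength in this difference was not tested. C57 H3K27ac lay at 25.2% and 39.3% of shared peaks in its replicates and at 17.8% and 34.8% of eosinophil-private peaks, so the libraries of the sets overlapped. Its mean over all eosinophil peaks was 31.2%. Within each library shared peaks were higher, by 7.36 and 4.46 points, the same order as for ATAC.

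The cultures expressed eosinophil genes together with genes used as macrophage markers. In the RNA libraries, with 40306679 and 30465490 counts, all 9 eosinophil markers were detected at 1 CPM or more (counts scaled to a common library total), and their summed level was 13226 and 13478 CPM. Of 14 macrophage markers 13 were detected, with a sum of 7087 and 8560 CPM and Marco at 0. Adgre1, a macrophage surface marker that eosinophils also express, stood at 1457.8 ± 142 CPM (SD, n = 2), and Csf1r, the receptor for macrophage growth factors, at 998 ± 77.5 CPM. All 10 neutrophil markers were detected, with sums of 2061 and 1758 CPM, and Spi1 itself stood at 411 and 436 CPM. The share of all genes at 1 CPM or more was not computed. The counts of detected markers therefore do not set these lists apart from other genes. The share of macrophages in the PU.1 library was not measured, and their part in the shared peaks was not tested.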

How the data were processed

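PU.1 ChIP, histone ChIP, ATAC and RNA libraries of cultured eosinophils were used with 4 outside peak lists that the authors re-analysed. The authors deposited 1 peak list per library, with a fold enrichment (a ratio) and a −log10 q value per peak, and raw read counts per gene for RNA. The submitters' processing notes name Bowtie2 2.3.4.1, Picard 1.89, bedtools 2.27.0, HOMER, STAR 2.5, featureCounts and mm9, without roles. The peak caller, the controls and the read depth behind the lists are not given in sources used here, and no genome or gene annotation of that build was used, so peaks carry no gene names and no sequences.

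Overlap meant at least 1 bp. A chromatin share is the percent of a peak set that overlaps a list, taken per library, as mean ± SD over 2 libraries. Intervals are 95% Wilson intervals. Quintiles and deciles are by −log10 q, with ties in list order. No p-value was computed, because each side has 1 PU.1 library. The overlap counts equalled those of bedtools 2.31.1, and the code was tested on simulated data with planted overlaps. Intervals came from scipy 1.17.1, tables from pandas 2.3.3 with numpy 2.4.6, under Python 3.11.15. Named regions are the 5 peaks with the highest −log10 q per set, without chromosome 18, mitochondrial and unplaced sequences, and the 5 highest eosinophil-private peaks that are open and acetylated in both libraries. The planned motif counts and gene annotation of peaks were not run. The outside H3K27ac lists of neutrophils and immature granulocytes and the outside RNA tables were not used. The sets, marker lists and alternatives were chosen with earlier results of these data known. CPM are the deposited counts divided by the library total and scaled in the usual way.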

Additional observations from a re-analysis of the deposited data

How the results depend on the processing

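The shared fraction of eosinophil peaks (83.3%) and of macrophage peaks (38.8%) became 78.9 and 36.8% by midpoints, 68.5 and 36.3% when at least 50% of the peak had to be covered, 60.8 and 61.0% at equal list lengths, 77.6 and 43.7% at a −log10 q of at least 5, and 77.4 and 35.6% with 200 bp windows. Differences for shared minus eosinophil-private peaks are given in points in the order ATAC, H3K27ac, H3K4me3, H3K4me1 and macrophage H3K27ac. They were 0.110, -3.25, -0.362, -2.06 and 28.0 by midpoints, and -8.06, -8.40, -0.916, -8.51 and 22.9 with 50% coverage. They were 2.37, 0.621, -0.998, 2.45 and 32.5 at equal lengths, 3.01, 0.766, 3.55, -0.384 and 36.2 at the stricter −log10 q, and -2.11, -7.39, -4.60, -3.36 and 16.9 with windows. As means over quintiles they were -1.84, -2.16, 8.23, -8.34 and 40.6. These settings were planned for the shared fractions, ATAC and the eosinophil marks, but not for macrophage H3K27ac. The alternatives for macrophage-private peaks and for the highest quintile were not planned either. The next settings were chosen after seeing the data. Within 25 groups by strength and width the differences were -5.63, -6.04, 9.19, -11.9 and 38.4, without peaks found in every list 6.54, 3.54, 7.48, -2.86 and 37.9, and without unplaced, Y and mitochondrial sequences 7.09, 4.09, 8.09, -1.95 and 38.3. With the macrophage H3K27ac list limited in length its difference was 23.2. The ATAC share at macrophage-private peaks was 5.09, 5.14, 3.09, 4.90 and 6.85% by midpoints, coverage, equal lengths, stricter q and windows.

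In the highest quintile the midpoint and window settings reversed ATAC (-7.81 and -4.92), H3K27ac (-12.9 and -17.5) and H3K4me3 (-4.27 and -11.1). The cause of these changes was not tested. Single chromatin libraries gave differences of 6.33 to 7.90 for ATAC, 3.50 to 4.93 for H3K27ac, 8.17 to 8.23 for H3K4me3 and -2.68 to -1.38 for H3K4me1, and 4.17 to 4.22% for ATAC at macrophage-private peaks. No paired analysis was possible because no test was run, and the differences above were taken within each library. With 1 PU.1 library a side of unknown read depth, a peak missing from a list cannot be told apart from a peak below its detection limit.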

Other observations

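The granulocyte PU.1 lists divided the private peaks further. A neutrophil peak lay at 77.3% (77.0 to 77.7%) of shared peaks, 32.4% (31.5 to 33.3%) of eosinophil-private peaks and 31.8% (31.5 to 32.1%) of macrophage-private peaks. For the shorter immature granulocyte list these shares were 46.5%, 9.93% and 6.97%. Over all eosinophil peaks the neutrophil list overlapped 69.8% and the immature granulocyte list 40.4%. Shared peaks were also stronger than eosinophil-private ones, and the part of peak strength in these shares was not tested. In all, 6676 eosinophil-private peaks (64.2%) were in neither granulocyte list, against 25.4% of all eosinophil peaks. The 6676 private peaks had a median −log10 q of 5.63, against 6.49 for the 3718 found in at least 1 granulocyte list. ATAC lay at 37.6 ± 1.43% (SD, n = 2 libraries) of the former and 31.7 ± 0.932% of the latter, and H3K4me3 at 25.02 ± 1.09% and 11.6 ± 0.951%. Macrophage H3K27ac lay at 21.8% and 10.1%.

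Chromosomes differed little in the shared fraction of eosinophil peaks, from 79.9% on chromosome 8 to 86.1% on chromosome 19 among 19 autosomes, with 81.7% (79.5 to 83.7%) of 1289 peaks on X. Among macrophage peaks the X chromosome had the smallest shared fraction of these chromosomes, 28.8% (27.4 to 30.3%) of 3706 peaks, below the autosomes with 35.3 to 44.2%.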
